A study of Rattus norvegicus with 12 samples.

Results

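Claudins are the membrane proteins that line tight junctions and set which ions pass between epithelial cells, and 10 claudin genes of the nephron and collecting duct were followed here: Cldn1, Cldn2, Cldn3, Cldn4, Cldn7, Cldn8, Cldn10, Cldn14, Cldn16 and Cldn19. They were chosen by gene name, and each had 1 entry in either deposited expression table, that is 10 of 22132 entries for the adenine experiment and 10 of 32623 for the UUO experiment. RNA had been sequenced from the kidneys of 12 wild-type male SD rats, bought at 8 weeks of age, in 4 groups of 3 rats. Rats of the adenine group were gavaged with a daily dose of 220 mg/kg adenine over 3 weeks, and control rats were given saline over the same time. In the UUO (unilateral ureteral obstruction) group the left ureter was ligated, the sham group was operated on without ligation, and kidneys were taken after 2 weeks. Both treatments are used as models of renal fibrosis, and the series asked which genes changed in each of them. The study takes the adenine model to stand for kidney disease from drug toxicity and the UUO model for obstructive kidney disease.

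Each nephron segment carries its own set of claudins, which gives it its own permeability. Cldn2 forms a cation and water pore of the proximal tubule. Cldn10 is made in an anion-selective form in the proximal tubule and a cation-selective form in the thick ascending limb, and the values here cover the gene and do not separate the forms. Cldn16 and Cldn19 together carry magnesium and calcium across the thick ascending limb, and Cldn14 counteracts them. Cldn3, Cldn4, Cldn7 and Cldn8 belong to the distal nephron and collecting duct, where Cldn4 and Cldn8 have been tied to chloride passage. Cldn1 is a sealing claudin, known in the kidney from the parietal cells of Bowman's capsule.

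Levels were given as FPKM, fragments scaled to transcript length and to the mapped fragments of the library, which is a value per length and lets genes be set side by side. In the control group Cldn2 had the highest mean level (71.5 ± 5.37 FPKM, SD, n = 3), and its range overlapped that of Cldn10 (66.8 ± 16.0 FPKM). Cldn8 followed at 30.9 ± 4.85 FPKM and overlapped neither neighbour in the order. From Cldn7 at 19.7 FPKM through Cldn19, Cldn16 and Cldn3 to Cldn4 at 11.5 FPKM every neighbour overlapped the next. Cldn1 lay apart from them at 2.42 ± 0.235 FPKM and Cldn14 was lowest, between 0 and 0.138 FPKM. In the sham group Cldn10 stood alone at the top (94.3 ± 21.3 FPKM), Cldn8 came next at 44.7 ± 3.81 FPKM and Cldn2 reached only 18.7 ± 4.99 FPKM. The level of Cldn2 thus differed between the reference groups, which lie in separate tables, and no test was made across the tables.

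The order was different in the diseased kidneys. Cldn4 was the most abundant of the 10 claudins in the adenine group (60.7 ± 3.49 FPKM), where its range overlapped that of Cldn2 (57.2 ± 20.3 FPKM) and the range of Cldn2 overlapped that of Cldn8 (56.6 ± 12.3 FPKM). In the UUO group Cldn4 stood above every other claudin at 149.9 ± 20.7 FPKM, Cldn7 was second at 101.6 ± 10.1 FPKM and Cldn3 was next at 48.0 ± 9.96 FPKM, with ranges that did not overlap between Cldn4 and Cldn7 or between Cldn7 and Cldn3. Cldn10 had moved to place 6 in the adenine group and to place 8 in the UUO group. Cldn14 was last in every group.

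**Figure D1:**
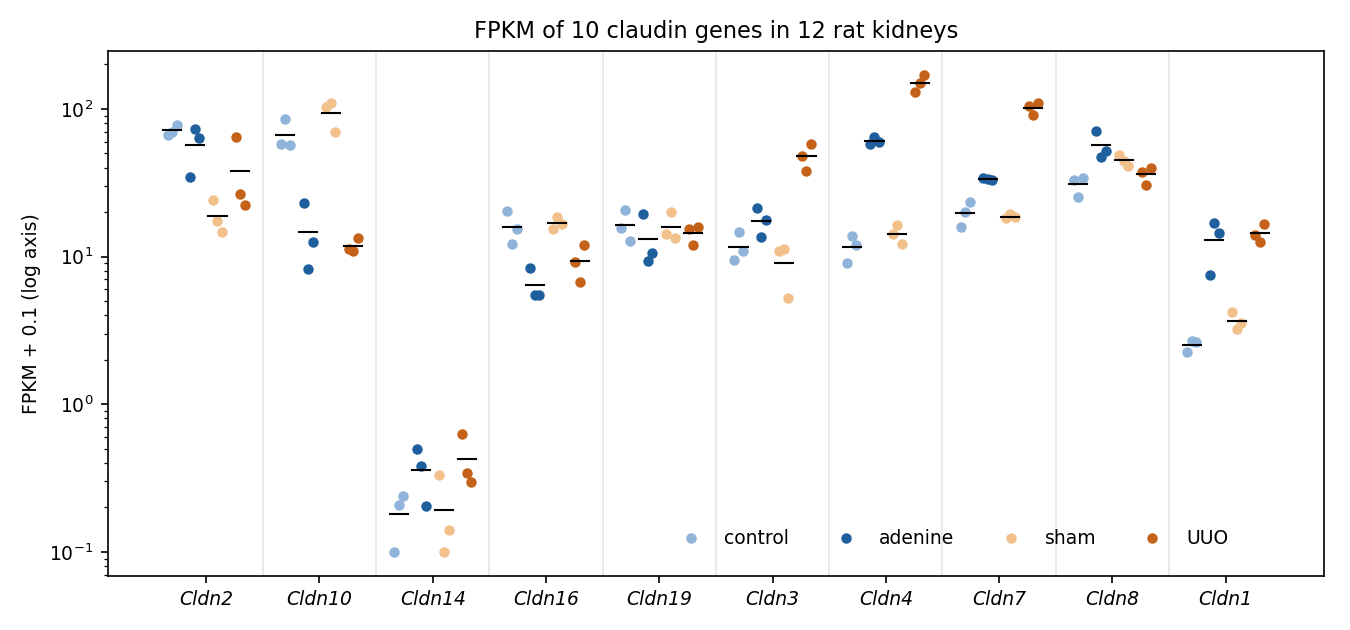
FPKM + 0.1 on a log axis for the 10 claudins in the 12 kidneys, 1 point per rat and a bar at the group mean; colours mark the control, adenine, sham and UUO groups. Cldn10 lies lower in both diseased groups than in their reference groups, from 66.8 to 14.6 FPKM with adenine and from 94.3 to 11.7 FPKM with UUO, whereas Cldn4 and Cldn1 lie higher in both.

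Changes were tested within each table on log2(FPKM + 0.1) with limma, and p-values were adjusted over all tested entries by Benjamini-Hochberg; a gene is said to have risen or fallen where its adjusted p was under 0.05. Of the 10 claudins, 9 passed the filter on low values in each table, and Cldn14 did not. In the adenine model 4 of the 9 rose and 2 fell, where 39.6% of all 15029 tested entries rose and 19.9% fell. In the UUO model 4 of the 9 also rose and 2 fell, against 56.1% and 14.4% of all 15043 entries. Cldn1, Cldn4 and Cldn7 rose in both models, Cldn10 and Cldn16 fell in both, Cldn8 rose with adenine and Cldn3 rose with UUO. With the study's fold threshold added, log2 fold changes of 2 or more in size, Cldn10, Cldn4 and Cldn1 passed with adenine, where 15.7% of entries passed, and Cldn10, Cldn3, Cldn4 and Cldn7 with UUO, where 17.4% passed. The groups did not overlap for 6 of 9 claudins with adenine and 7 of 9 with UUO, which is near the shares over all entries, 68% and 75.7%. The median log2 fold change of the 9 claudins was 0.59 with adenine and 0.87 with UUO, beside 0.30 and 0.62 over all entries.

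The shift of all entries depended on scaling, so the claudins were also set against it. With median-of-ratios scaling the median over all entries was 0.07 with adenine and 0.08 with UUO. The split of all called entries moved with it, from 5944 risen and 2990 fallen to 4676 and 4021 with adenine, and from 8441 and 2165 to 4547 and 3959 with UUO. Minus the median of all entries, the log2 fold change was -2.59 and -3.59 for Cldn10, 2.11 and 2.78 for Cldn4, 1.99 and 1.35 for Cldn1 and 0.48 and 1.83 for Cldn7, with adenine given first. The 12 claudin calls, 6 in each model, kept their direction and passed under median-of-ratios scaling, quantile normalisation and scaling to the same sum. All samples are bulk tissue, in which fewer cells of a type and less RNA per cell cannot be told apart.

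Promoters are shown for 3 claudins that rose with UUO (Cldn7, Cldn3 and Cldn1) and for the 2 that fell in both models (Cldn10 and Cldn16). These genes were picked after their changes were seen, and Cldn8, which rose with adenine, is not shown. The sequences are those of RefSeq build GRCr8 from 250 bases before to 50 bases after the annotated start, given 5′ to 3′ on the strand of the gene. An entry was found for 8 of the 10 claudins, and Cldn2 and Cldn4 had none, although Cldn4 rose the most in both models. Capitals mark the dinucleotide CG, which reads the same on both strands and occurs at least once in 94.5% of 33469 promoters of this length. The regions are chr10:55188420-55188719 on the plus strand for Cldn7, chr12:27346498-27346797 on the minus strand for Cldn3, chr11:87926126-87926425 on the plus strand for Cldn1, chr15:102269608-102269907 on the plus strand for Cldn10 and chr11:87814347-87814646 on the minus strand for Cldn16.
Cldn7: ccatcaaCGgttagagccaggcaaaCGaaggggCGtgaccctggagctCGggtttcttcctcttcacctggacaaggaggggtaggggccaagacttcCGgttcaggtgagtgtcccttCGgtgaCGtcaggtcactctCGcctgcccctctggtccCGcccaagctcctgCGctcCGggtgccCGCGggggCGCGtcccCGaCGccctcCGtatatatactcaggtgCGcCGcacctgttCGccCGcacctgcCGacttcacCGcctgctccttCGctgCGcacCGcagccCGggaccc
Cldn3: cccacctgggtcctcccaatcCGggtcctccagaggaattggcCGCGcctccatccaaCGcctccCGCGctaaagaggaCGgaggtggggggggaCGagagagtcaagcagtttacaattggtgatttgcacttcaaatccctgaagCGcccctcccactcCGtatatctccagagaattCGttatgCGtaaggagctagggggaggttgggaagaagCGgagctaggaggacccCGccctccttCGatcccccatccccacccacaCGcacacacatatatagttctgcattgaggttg
Cldn1: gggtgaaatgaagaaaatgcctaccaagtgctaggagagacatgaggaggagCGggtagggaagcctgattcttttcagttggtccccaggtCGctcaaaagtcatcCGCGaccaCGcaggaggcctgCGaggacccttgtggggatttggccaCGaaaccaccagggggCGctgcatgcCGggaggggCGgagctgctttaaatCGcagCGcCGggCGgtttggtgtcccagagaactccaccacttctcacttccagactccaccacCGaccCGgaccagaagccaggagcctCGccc
Cldn10: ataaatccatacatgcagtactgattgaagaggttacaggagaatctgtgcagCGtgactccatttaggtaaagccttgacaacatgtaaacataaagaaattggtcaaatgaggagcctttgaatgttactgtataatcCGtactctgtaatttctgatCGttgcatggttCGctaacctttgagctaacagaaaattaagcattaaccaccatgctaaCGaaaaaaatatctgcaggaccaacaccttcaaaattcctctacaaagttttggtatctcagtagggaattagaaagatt
Cldn16: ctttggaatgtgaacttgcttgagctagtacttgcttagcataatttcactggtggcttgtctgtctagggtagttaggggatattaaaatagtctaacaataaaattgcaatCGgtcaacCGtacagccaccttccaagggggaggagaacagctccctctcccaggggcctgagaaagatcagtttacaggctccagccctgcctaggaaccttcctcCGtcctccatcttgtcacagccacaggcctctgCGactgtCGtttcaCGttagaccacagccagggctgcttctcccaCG

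The sequence of Cldn7 held 28 CG dinucleotides and 67% G and C, and 87.3% of promoters held fewer CG. Cldn1 held 17 (71.0% held fewer) and Cldn3 held 16 (69.5% held fewer). Cldn16 held 7, which is also the median of all promoters, and Cldn10 held 5 (38.0% held fewer) with 37% G and C against a median of 51.7%. Among the rest, Cldn8, which rose with adenine, held 4, the fewest of all claudins with an entry, and Cldn14 and Cldn19 held 6 each. A link between CG and the direction of change was not tested. These are counts of letters in 1 annotated window per gene, and the window of Cldn10 does not cover the start of its other form.

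Cldn10 had the largest fall among the 9 tested claudins in both models. Its level was 58.1, 85.2 and 57.0 FPKM in the control rats and 23.0, 8.16 and 12.5 FPKM in the adenine rats. It was 103, 110.1 and 70.1 FPKM in the sham rats and 11.1, 10.8 and 13.3 FPKM in the UUO rats. Every diseased kidney was below every reference kidney, and the adenine rats varied more among themselves than the UUO rats did. By limma the log2 change was -2.29 ± 0.37 (SE, adjusted p = 0.00210) with adenine and -2.97 ± 0.18 (adjusted p = 3.14e-05) with UUO. The mean FPKM of the diseased group was 0.218 and 0.125 of the reference mean. Of all tested entries, 4.13% and 2.16% had a lower log2 fold change. The difference between the models, -0.68 with a 95% interval of -1.58 to 0.22, did not pass the threshold (adjusted p = 0.240).

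Cldn16, the partner of Cldn19 in the thick ascending limb, fell less. It measured 20.1, 12 and 15.2 FPKM in the control rats and 8.29, 5.36 and 5.42 FPKM in the adenine rats. In the other table it measured 15.2, 18.5 and 16.4 FPKM in the sham rats and 9.09, 6.58 and 11.9 FPKM in the UUO rats. The groups did not overlap in either model. Its log2 fold change by limma was -1.30 ± 0.25 (SE, adjusted p = 0.00424) with adenine and -0.89 ± 0.22 (adjusted p = 0.00866) with UUO, and without the filter on low values the adjusted p of the second was 0.0514.

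Cldn19 did not pass the test in either model. It measured 15.5, 20.7 and 12.7 FPKM in the control rats and 19.2, 9.20 and 10.4 FPKM in the adenine rats, with overlapping groups. The sham rats had 14.0, 19.8 and 13.3 FPKM and the UUO rats 15.2, 11.8 and 15.7 FPKM, again with overlap. Limma gave a log2 fold change of -0.38 (95% interval -1.12 to 0.37, adjusted p = 0.331) with adenine and -0.13 (-0.58 to 0.32, adjusted p = 0.558) with UUO, and these intervals leave room for moderate changes either way. The adenine value rested on 1 rat, since without adenine replicate 1, the highest of the 3, it was -0.70 (adjusted p = 0.0429). In the UUO model the call changed with scaling: it was -0.67 (adjusted p = 0.0210) with median-of-ratios scaling and -0.64 (adjusted p = 0.0183) with quantile normalisation, and it turned to 0.09 when samples were scaled to the same sum.

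Cldn14, the inhibitor of the Cldn16 and Cldn19 pathway, was at or near 0 in these tables. It was listed at 0, 0.106 and 0.138 FPKM in the control rats and 0.394, 0.283 and 0.104 FPKM in the adenine rats. In the other table it was listed at 0.233, 0.0001 and 0.0403 FPKM in the sham rats and at 0.532, 0.240 and 0.199 FPKM in the UUO rats, where 0.0001 is the lowest value the table holds. The groups overlapped in both models, and no fold is given.

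Cldn2 of the proximal tubule did not pass the test in either model. The control rats had 66.9, 70.0 and 77.4 FPKM and the adenine rats 34.4, 73.3 and 63.8 FPKM. The sham rats had 24.2, 17.4 and 14.5 FPKM and the UUO rats 64.5, 26.2 and 22.2 FPKM. A single rat stood away from its group in each model, adenine replicate 1 below and UUO replicate 1 above. Limma gave a log2 fold change of -0.39 (95% interval -1.05 to 0.27, adjusted p = 0.257) with adenine and 0.87 (-0.10 to 1.85, adjusted p = 0.0946) with UUO. The UUO value ranged from 0.40 to 1.17 when each rat was left out in turn, and it reached an adjusted p of 0.0418 with samples scaled to the same sum and 0.04997 without UUO replicate 3. With median-of-ratios scaling it was 0.33 (adjusted p = 0.534) and with quantile normalisation 0.47 (adjusted p = 0.404).

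Among the claudins of the collecting duct, Cldn4 rose the most. Its level was 8.88, 13.7 and 12 FPKM in the control rats and 57.9, 64.6 and 59.6 FPKM in the adenine rats. It was 14.1, 16.2 and 12 FPKM in the sham rats and 129, 150.0 and 171 FPKM in the UUO rats. Both differences were many times the spread between rats, 5.27-fold with adenine and 10.6-fold with UUO by group means. The log2 fold change by limma was 2.41 ± 0.17 (SE, adjusted p = 7.81e-05) and 3.40 ± 0.15 (adjusted p = 1.27e-05), with 92.1% and 96.7% of all entries below it.

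Cldn7, whose promoter held more CG than those of the other 7 claudins with an entry and which is found along the basolateral membrane as well as in the junction, rose modestly with adenine and strongly with UUO. It measured 15.8, 20.0 and 23.1 FPKM in the control rats and 34.0, 33.4 and 32.9 FPKM in the adenine rats. It measured 18.0, 19.3 and 18.4 FPKM in the sham rats and 105, 90.3 and 109.7 FPKM in the UUO rats. No groups overlapped, and the control rats varied more among themselves than the adenine rats did. By limma it changed on the log2 scale by 0.78 ± 0.15 (SE, adjusted p = 0.00425) and 2.44 ± 0.10 (adjusted p = 1.09e-05).

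Cldn3 passed the test in the UUO model and not in the adenine model. It measured 9.42, 14.6 and 10.7 FPKM in the control rats and 21.1, 13.5 and 17.7 FPKM in the adenine rats, which overlapped through control replicate 2 and adenine replicate 2. The sham rats had 10.7, 11.1 and 5.16 FPKM and the UUO rats 48.1, 38.0 and 58.0 FPKM. The log2 fold change by limma was 0.59 ± 0.22 (SE, adjusted p = 0.0571) with adenine and 2.46 ± 0.31 (adjusted p = 0.000499) with UUO. The adenine value passed the threshold without control replicate 2 (0.77, adjusted p = 0.0249), without adenine replicate 2 (0.76, adjusted p = 0.0289) and with samples scaled to the same sum (0.86, adjusted p = 0.0114). It was 0.35 (adjusted p = 0.236) with median-of-ratios scaling and 0.39 (adjusted p = 0.199) with quantile normalisation.

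Cldn8 rose with adenine and had a value below 0 with UUO. It measured 33.1, 25.3 and 34.2 FPKM in the control rats and 70.5, 47.2 and 52.0 FPKM in the adenine rats. The sham rats had 48.6, 44.4 and 41.0 FPKM and the UUO rats 37.1, 30.6 and 39.9 FPKM. All adenine kidneys were above all control kidneys, and all UUO kidneys were below all sham kidneys. By limma it rose with adenine by 0.86 ± 0.19 on the log2 scale (SE, adjusted p = 0.00735). With UUO the value was -0.32 ± 0.12 (adjusted p = 0.0523), which did not pass, and which lay 0.94 below the median of all entries. It passed with median-of-ratios scaling (-0.87, adjusted p = 0.000925), with quantile normalisation (-0.61, adjusted p = 0.00683) and without UUO replicate 3 (-0.40, adjusted p = 0.0356), and it was -0.097 (adjusted p = 0.512) with samples scaled to the same sum.

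Cldn1 started from a low level in the reference groups and rose in both models. It measured 2.15, 2.57 and 2.54 FPKM in the control rats and 7.39, 16.7 and 14.4 FPKM in the adenine rats. It measured 4.11, 3.14 and 3.43 FPKM in the sham rats and 13.8, 12.5 and 16.4 FPKM in the UUO rats. The lowest diseased kidney of each model was above its highest reference kidney. By limma it changed on the log2 scale by 2.29 ± 0.31 (SE, adjusted p = 0.000928) with adenine and 1.97 ± 0.16 (adjusted p = 7.66e-05) with UUO, and the difference between them was -0.32 (95% interval -1.06 to 0.43, adjusted p = 0.526).

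**Figure D2:**
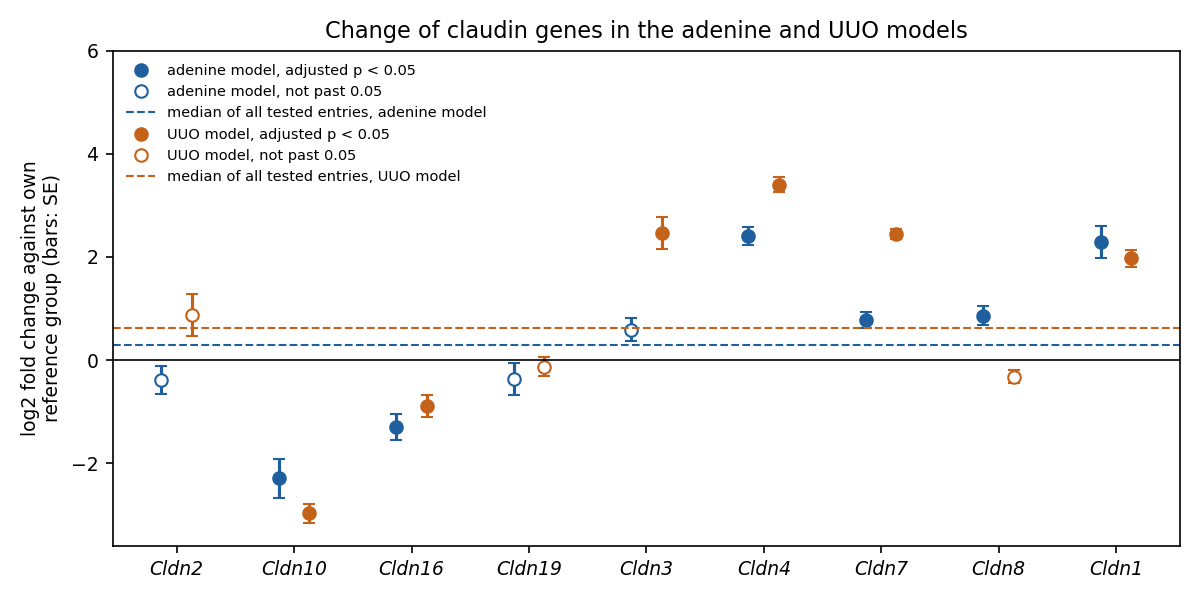
Log2 fold change of the 9 tested claudins against the group's own reference, with standard errors from limma; blue is the adenine model, orange the UUO model, filled points have an adjusted p under 0.05 and dashed lines are the medians of all tested entries, 0.30 and 0.62. Cldn3, Cldn4 and Cldn7 lie higher in the UUO model, Cldn8 lies higher in the adenine model, and Cldn10 is lowest in both.

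Set against each other, the changes differed between the models for 4 of the 9 claudins, where 27% of 13486 genes tested in both tables differed. The log2 fold change in UUO minus that in adenine was 1.87 for Cldn3 (95% interval 1.04 to 2.70, adjusted p = 0.00409 from the limma fits), 1.66 for Cldn7 (1.28 to 2.04, adjusted p = 9.50e-05), 0.99 for Cldn4 (0.51 to 1.47, adjusted p = 0.00669) and -1.18 for Cldn8 (-1.67 to -0.70, adjusted p = 0.00271). Thus 3 collecting duct claudins were higher and the remaining one lower in UUO relative to adenine. The value of Cldn4 was 0.68 with median-of-ratios scaling and no longer passed (adjusted p = 0.0561). Cldn2 had a difference of 1.26 (95% interval 0.20 to 2.32) that did not pass the adjusted threshold (adjusted p = 0.0722), and it did pass without adenine replicate 2 (1.48, adjusted p = 0.0445) and without UUO replicate 3 (1.56, adjusted p = 0.0400). That difference was 0.95 (adjusted p = 0.199) with median-of-ratios scaling, 0.76 (adjusted p = 0.332) with quantile normalisation and 0.79 (adjusted p = 0.129) without UUO replicate 1. For Cldn16 the difference was 0.41 (-0.30 to 1.11) and for Cldn19 it was 0.25 (-0.54 to 1.03), both short of the threshold.

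The shares that single claudins held of the summed FPKM of the 10 genes in a kidney were also taken, as a description without a test. Claudins outside the 10 are left out of this sum. The summed FPKM of the 10 genes was 230 to 264 in the control rats and 269 to 276 in the adenine rats. In the other table it was 194 to 260 in the sham rats and 377 to 458 in the UUO rats. Cldn10 made up 26.9% ± 4.71 (SD, n = 3) of the sum in control rats and 5.33% ± 2.73 in adenine rats, and 39.7% ± 3.27 in sham rats and 2.78% ± 0.18 in UUO rats. Cldn4 went the other way, from 4.65% ± 0.70 to 22.3% ± 1.41 with adenine and from 6.02% ± 0.36 to 35.6% ± 5.18 with UUO. Cldn7 held 8.01% ± 1.26 in sham rats and 24.0% ± 0.13 in UUO rats, whereas Cldn8 held 19.1% ± 1.99 and 8.46% ± 0.31. In the adenine model the share of Cldn8 was 12.6% ± 2.66 in control rats and 20.7% ± 4.25 in adenine rats. Depth is not known for these tables, so the error of a share is the spread between rats alone.

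**Figure D3:**
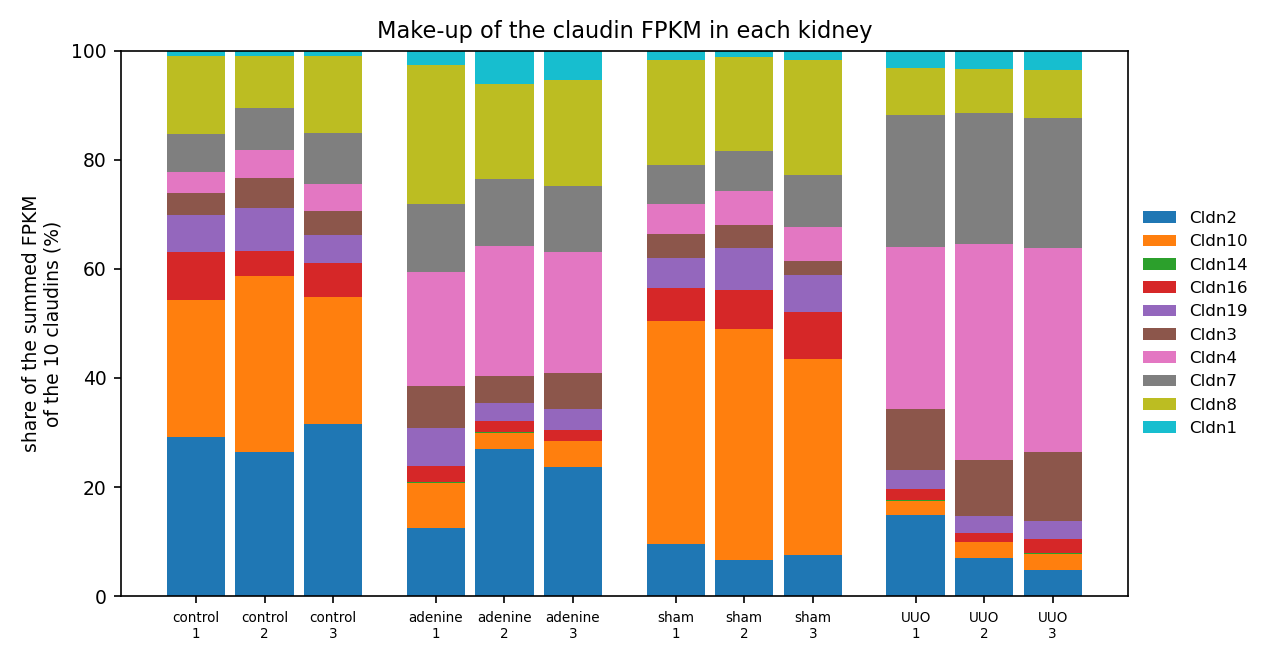
Share of the summed FPKM of the 10 claudins held by each gene, in percent, 1 stacked bar per kidney. The Cldn10 band (orange) narrows from 26.9% to 5.33% on average with adenine and from 39.7% to 2.78% with UUO, while the Cldn4 band (pink) widens to 22.3% and 35.6%.

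Marker genes of the segments were abundant in the reference kidneys, with Umod at 1207 to 1588 FPKM in control rats and 1888 to 2490 FPKM in sham rats, and many of them changed. All 4 thick ascending limb markers fell in both models; Umod, which encodes uromodulin, changed by -3.43 ± 0.34 on the log2 scale (SE; adjusted p by limma = 0.000266) with adenine and -4.47 ± 0.34 (adjusted p = 6.17e-05) with UUO, and Slc12a1, the NKCC2 cotransporter, had -1.65 and -2.13. Of 6 principal cell markers, 3 fell with adenine and 5 with UUO, and none rose; the water channel Aqp2 had -0.98 (adjusted p = 0.0116) and -3.36 (adjusted p = 1.09e-05), and Aqp3 had -0.48 (adjusted p = 0.295) and -0.99 (adjusted p = 0.00140). Of 8 proximal tubule markers, 4 fell and 1 rose with adenine and 5 fell with UUO; Lrp2, the endocytic receptor megalin, had -2.75 (adjusted p = 0.00521) and -2.09 (adjusted p = 4.69e-05), while Cubn had -0.34 and -0.48 and did not pass. In the adenine and UUO models the injured tubule list had 5 of 6 and 6 of 6 members rising, among them Havcr1 (6.43 and 6.80) and Lcn2 (7.08 and 5.99). The leukocyte and fibroblast lists rose with 4 of 4 each in both models, Cd68 by 6.20 and 3.71 and Col1a1 by 3.70 and 5.27. In these lists Itgam in both models and Postn with UUO passed the filter on low values only through the diseased rats. Of 5 intercalated cell markers 4 fell with adenine and 5 with UUO, among them Atp6v1b1 (-2.58 and -1.88). Of 5 tested markers of the distal convoluted and connecting tubule 2 rose and none fell with adenine, and 3 fell with UUO, among them Slc12a3 (-3.21). Of 4 podocyte markers 1 fell with adenine, and 1 rose and 1 fell with UUO. Of 3 endothelial markers 1 rose and 1 fell with adenine and 1 rose with UUO, Cdh5 rising in both (0.84 and 2.48). With median-of-ratios scaling no called gene of these marker lists turned direction, and the rises of Cdh5, Slc8a1 and Acta2 with adenine no longer passed. The part of these cell types in the claudin values was not tested.

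The claudins were also set against the markers of their own segment in the same kidney. The measure is log2(FPKM + 0.1) of the claudin minus the mean of the segment's markers, which depends little on scaling between samples, and it was compared with an exact two-sided permutation test whose smallest p with 3 against 3 is 0.1. The groups did not overlap in 13 of 16 such comparisons, each with an exact permutation p = 0.1 (0.123 adjusted over the 16), so none could pass the threshold. The marker lists had median log2 fold changes of -0.94 and -1.74 for the principal cell, -2.26 and -2.55 for the thick ascending limb and -1.58 and -1.98 for the proximal tubule (adenine first). Where the mean of a list falls, a gene without any change stands higher on this measure. The mean can differ from the median, as in the proximal list with adenine, where 4 of 8 markers fell and 1 rose. Of all tested entries, 70.8% with adenine and 90.1% with UUO stood higher in every diseased kidney than in every reference kidney relative to principal cell markers. The shares were 88.5% and 94.6% relative to thick ascending limb markers, and 28.4% and 87.6% relative to proximal tubule markers. The counts of claudins are read against these shares and are not a result about claudins. Cldn4 stood 3.39 higher relative to principal cell markers in the adenine group than in the control group, and 5.24 higher in the UUO group than in the sham group. Cldn3 stood 1.57 and 4.31 higher, Cldn7 1.77 and 4.29 higher, and Cldn8 1.85 and 1.52 higher. Relative to thick ascending limb markers Cldn19 stood 1.86 and 2.69 higher and Cldn16 0.93 and 1.93 higher, although the FPKM of Cldn16 itself fell.

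For Cldn10 the change was close to 0 relative to thick ascending limb markers and below 0 relative to proximal markers, with overlap in both. Relative to thick ascending limb markers it differed by -0.06 with adenine (exact permutation p = 1) and by -0.15 with UUO (exact permutation p = 0.8), with overlapping groups. Its direction turned when control replicate 2, adenine replicate 2 or UUO replicate 3 was left out (0.21, 0.25 and 0.01). Since Cldn10 is also made in the proximal tubule, proximal markers were tried in place of those of the thick limb, a choice made after seeing the data, and the differences were -1.34 (exact permutation p = 0.4) and -0.95 (exact permutation p = 0.2). Cldn2 relative to proximal markers stood 0.57 higher in the adenine group, with overlap (exact permutation p = 0.5), and 2.90 higher in the UUO group, without overlap.

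**Figure D4:**
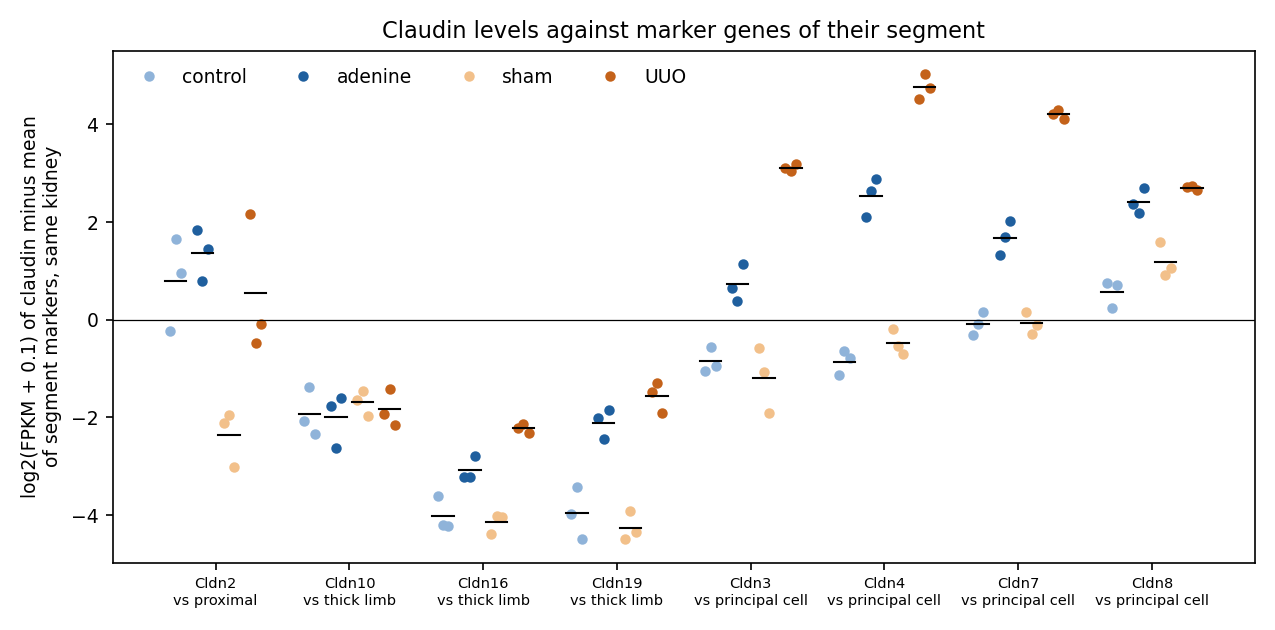
Log2(FPKM + 0.1) of 8 claudins minus the mean of the marker genes of their segment in the same kidney, 1 point per rat with group means as bars, for the control, adenine, sham and UUO groups. The collecting duct claudins lie above their reference groups in both models, by up to 5.24 for Cldn4 with UUO, as did 70.8% and 90.1% of all entries set against the same markers. The groups of Cldn10, set against thick ascending limb markers, overlap, with mean differences of -0.06 with adenine and -0.15 with UUO.

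Cells from outside the nephron could also carry these claudins. Urothelium, the lining of the renal pelvis and ureter, expresses claudins including Cldn4, and its 6 markers (the uroplakins Upk1a, Upk1b, Upk2, Upk3a, Upk3b, and the keratin Krt5) all rose with UUO. Their summed level was 0.646 to 2.76 FPKM in the sham rats and 73.3 to 146 FPKM in the UUO rats. In the adenine table it was 0.740 to 7.12 FPKM in the control rats and 1.26 to 4.34 FPKM in the adenine rats, only 2 of the 6 could be tested, and neither rose nor fell. The part of urothelium in the UUO values of Cldn3, Cldn4 and Cldn7 was not tested.

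Control replicate 2 stood apart by low levels of some segment markers, with Calb1 of the distal tubule, named after its values were seen, at 27.5 FPKM beside 407 and 190 FPKM in the other control rats. Without it the 6 claudins called in the adenine model were called in the same direction, and Cldn3 was added. Pvalb, a marker of the distal convoluted tubule, was listed at the lowest value in 10 of 12 kidneys, at 0.275 FPKM in control replicate 3 and at 0.646 FPKM in UUO replicate 1. Cldn5, the claudin of endothelium, was listed at the lowest value in all kidneys but control replicate 3 (22.1 FPKM) and sham replicate 1 (13.8 FPKM).

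Other claudins outside the chosen 10 were tested where they passed the filter, which 7 did with adenine (7 did not) and 7 with UUO (11 did not). In the adenine model Cldn11 rose (1.52 ± 0.29, SE, limma, adjusted p = 0.00442), and Cldn6, Cldn9, Cldn12, Cldn15, Cldn17 and Cldn23 did not pass, with values from -0.33 for Cldn12 to 0.80 for Cldn23. In the UUO model Cldn11 rose (1.89 ± 0.31, adjusted p = 0.00148), as did Cldn15 (1.87 ± 0.17, adjusted p = 0.000109) and Cldn6 (2.08 ± 0.59, adjusted p = 0.0176). Cldn11 was low in the reference groups, with means of 0.378 FPKM in control rats and 0.402 FPKM in sham rats. In both models it passed the filter on low values only through the diseased rats, so its rise was favoured by the filter. The call of Cldn6 was lost with median-of-ratios scaling (adjusted p = 0.0617) and quantile normalisation (adjusted p = 0.0509). Cldn9 (0.33), Cldn12 (0.29), Cldn22 (0.06) and Cldn23 (1.73, adjusted p = 0.0571) did not pass.

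Genes of the proteins that work with claudins in the junction were taken as a list. Of 27 tight junction partners tested, 6 rose and 3 fell in the adenine model, and the median log2 fold change was 0.15, beside 39.6% risen, 19.9% fallen and a median of 0.30 over all entries. The largest rises were those of Cxadr, the coxsackievirus and adenovirus receptor (2.17 ± 0.22, SE, limma, adjusted p = 0.000301), Prkci, an atypical protein kinase C (0.85), and Lsr, a protein of tricellular junctions (0.73). Mpdz, a scaffold with many PDZ domains, fell by 1.54 on the log2 scale, and the polarity scaffold Mpp5 (-1.47) and the adhesion molecule Epcam (-0.48) fell as well. The call of Lsr was lost with median-of-ratios scaling (0.50, adjusted p = 0.0984), and that of Epcam with quantile normalisation (-0.33, adjusted p = 0.114) and with samples scaled to the same sum (-0.21, adjusted p = 0.313). With UUO 16 of the 27 rose and 2 fell, with a median of 0.58, which is near the values over all entries (56.1% risen, 14.4% fallen and a median of 0.62). Jam2 (1.93), Lsr (1.9) and Jam3 (1.54) led, and the cingulin relative Cgnl1 (-0.86) and Ildr1 (-0.63) fell. These counts moved with scaling, to 4 risen and 5 fallen with adenine and 10 risen and 7 fallen with UUO under median-of-ratios scaling, where 2 of the partners called with UUO turned direction, Patj and Epcam. Among partners named after their values were seen, Ocln, the gene of occludin, had 0.15 (adjusted p = 0.233) and 0.35 (adjusted p = 0.159), and Tjp1, the gene of the scaffold ZO-1, rose in both (0.66, adjusted p = 0.0238, and 1.28, adjusted p = 0.000350), with the adenine call lost under median-of-ratios scaling (adjusted p = 0.0884) and quantile normalisation (adjusted p = 0.0893).

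Genes tied to the regulation of claudins elsewhere were followed as a list too. Of 23 tested with adenine 3 rose and 7 fell, and of 24 with UUO 9 rose and 9 fell, beside 39.6% risen and 19.9% fallen over all entries with adenine and 56.1% and 14.4% with UUO. Snai1, a repressor of epithelial junction genes, rose in both (1.55 ± 0.19, SE, limma, adjusted p = 0.000590, and 2.65 ± 0.17, adjusted p = 3.70e-05), and so did Elf3, an epithelial ETS factor (1.57 and 2.33). Zeb2 was the largest rise with adenine (2.87), and the grainyhead factors Grhl3 (3.14) and Grhl1 (2.42) rose with UUO from mean levels of 0.317 and 0.0960 FPKM in the sham group. Grhl3 and Grhl1 passed the filter on low values only through the UUO rats. Among those that fell were the parathyroid hormone receptor Pth1r (-2.88 and -2.10) and the proximal tubule factor Hnf4a (-2.42 and -1.93). Casr, the calcium-sensing receptor that acts on Cldn14 in the thick ascending limb, fell with UUO (-2.51 ± 0.35, adjusted p = 0.000707) and had -1.43 (adjusted p = 0.0979) with adenine. Elf5, an ETS factor of the principal cell lineage, fell in both (-1.13 and -3.28), with the adenine call lost when samples were scaled to the same sum (-0.90, adjusted p = 0.0838). With UUO Elf5 passed the filter on low values only through the sham rats. With median-of-ratios scaling the counts were 3 and 8 with adenine and 7 and 10 with UUO, with Grhl2, named for this reason, turning direction in the latter.

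For each claudin the genes with the most similar course were found by the root mean square difference of log2 values over the 12 kidneys, after subtracting the mean of the reference group in each table, among 13486 genes. Cldn4 was nearest to Anxa3 (0.21) and Irf1 (0.23), Cldn7 to Pear1 (0.13) and Mrc2 (0.20), and Cldn3 to Wnt5b (0.29) and Cyp4b1 (0.31). Cldn10 was nearest to Gstz1 (0.38) and Mccc1 (0.39), and 3.90% of genes lay within 1 of it. Cldn8 had Gga2 (0.14) and Txnrd1 (0.16) as its nearest genes, and 65.6% of genes lay within 1, beside 64.0% for Cldn2 and 64.5% for Cldn19. Cldn16 was nearest to Nudt6 (0.18) and Nrgn (0.22), Cldn19 to Ugp2 (0.18) and Polr3k (0.21), Cldn1 to Trpc6 (0.25) and Nek6 (0.26), and Cldn2 to Sema3b (0.33) and AABR07029195 (0.34).

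In the RefSeq annotation Cldn3 and Cldn4 are neighbours on chromosome 12, and both rose with UUO, whereas with adenine Cldn4 rose (2.41) and Cldn3 did not pass (0.59, adjusted p = 0.0571). Cldn1 and Cldn16 are neighbours on chromosome 11, and in both models Cldn1 rose while Cldn16 fell. Cldn8 lies beside Cldn17 on the same chromosome.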

How the data were processed

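Kidney poly(A) RNA of 12 rats was sequenced, 3 per group, and samples were grouped by their labels. The authors deposited FPKM values per gene in 2 separate tables, 1 for the control and adenine groups and 1 for the sham and UUO groups. The tables differ in number of entries (22132 and 32623) and in lowest value (0 and 0.0001), and each was analysed by itself. The submitters' processing notes name cutadapt 1.9, HISAT2 2.0.4 and StringTie 1.3.4d; the genome build is not given in the sources used here, so no coordinates of the tables' genes are printed, and RefSeq GRCr8 served for names, neighbours and promoters only. Read counts and depth are unknown: low values were checked for common steps between samples, and at most 5.80% of entries shared one, so precision is that of 3 rats. Between 11.8% and 45.4% of entries were at the lowest value of their table.

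Values were analysed as log2(FPKM + 0.1) for entries that reached 0.5 FPKM in 3 or more of the 6 samples. Each whole table was fitted in R 4.3.3 with limma 3.58.1, using lmFit and a trended eBayes, and p-values were adjusted by Benjamini-Hochberg. Fold changes on this scale understate those of low genes. The change in UUO minus that in adenine was divided by its combined standard error and adjusted over genes tested once in both tables. Ratios to segment markers were compared with exact permutation tests in scipy 1.17.1 under Python 3.11.15, beside numpy 2.4.6 and pandas 2.3.3. The fits were tested on simulated data. The claudins, the marker and partner lists and the rule for named genes (all claudins tested, the 3 largest rises and falls of the partner and regulator lists, the first 2 markers of each list, and the 2 nearest genes) were chosen with earlier results of these data known. Alternatives were other pseudocounts, filters, scalings, no trend, a replicate block and leaving out each rat. Replicate numbers were not taken to pair the samples. Some genes that this rule would name are not reported here.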

Additional observations from a re-analysis of the deposited data

Results flagged for a closer look

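The response of 4 of the 9 tested claudins differed between the models, where 27% of 13486 genes differed. The test was that of the log2 fold change in UUO minus that in adenine, adjusted over these genes. Cldn3 had a difference of 1.87 (adjusted p = 0.00409 from the limma fits), Cldn7 of 1.66 (adjusted p = 9.50e-05) and Cldn4 of 0.99 (adjusted p = 0.00669), all higher with UUO. Cldn8 had a difference of -1.18 (adjusted p = 0.00271), which is higher with adenine. The models differ in agent, surgery and duration, and the groups lie in separate tables, so these cannot be told apart as sources of the difference. When each rat was left out in turn, the differences stayed between 1.52 and 2.07 for Cldn3, 1.54 and 1.81 for Cldn7, 0.85 and 1.17 for Cldn4 and -1.30 and -1.01 for Cldn8, and all remained past the threshold. With median-of-ratios scaling the difference of Cldn4 was 0.68 and did not pass (adjusted p = 0.0561 from the limma fits). Urothelial markers moved alongside Cldn3, Cldn4 and Cldn7 with UUO, where 6 of 6 rose, and their part was not tested. All but Upk1a passed the filter on low values only through the UUO rats, so their rise was favoured by the filter. With adenine 2 of these markers could be tested, and neither passed.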

How the results depend on the processing

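The number of claudins that fell with UUO was 2, where 2165 of all 15043 tested entries fell. It was 4 with median-of-ratios scaling or quantile normalisation, where 3959 and 4144 of all entries fell. With no filter on low values it was 1, where 1933 of 32623 entries fell. The number past both study thresholds was 2 instead of 4 with median-of-ratios scaling, and all entries were not counted for this. Median-of-ratios scaling and quantile normalisation lower the median of all entries in that table from 0.62 to 0.08 and 0.03. Left out rat by rat, 2 to 3 claudins fell, 4 to 5 rose and 2 to 3 passed both thresholds in the adenine model. In the UUO model 2 to 3 fell, 4 to 5 rose and 4 to 5 passed both. Between the models 4 to 5 differed. Shares over all entries were not counted with rats left out. With all rats, 39.6% of entries rose, 19.9% fell and 15.7% passed both thresholds in the adenine model. In the UUO model these shares were 56.1%, 14.4% and 17.4%, and 27% of genes differed between the models. Of 16 marker ratios, 13 had groups that did not overlap. That count is not a result about claudins, since 28.4% to 94.6% of all entries stood higher without overlap on the same measures. The direction turned in 7 cases, all for values that had not passed. The UUO minus adenine difference of Cldn19 was -0.062 with median-of-ratios scaling and -0.058 with quantile normalisation. Its UUO change was 0.095 with samples scaled to the same sum, and -0.23 to 0.049 with each rat left out. The ratio of Cldn10 to thick ascending limb markers was -0.26 to 0.25 in the adenine model and -0.36 to 0.0075 in the UUO model with each rat left out.

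Same-numbered rats of the groups compared had deviations correlated at -0.12 to -0.05 in the adenine table and at 0.05 to 0.11 in the UUO table, so the numbers were not taken to pair them; in the UUO table each rat correlated best with its own number. With a replicate block in the fit, Cldn2 passed in the UUO model (0.87, adjusted p = 0.0144) and in the difference between the models (1.26, adjusted p = 0.0153), and 5 claudins rose with UUO. Precision is limited by 3 rats per group and unknown depth, and Cldn14 could not be tested; without a filter its log2 fold change was 0.99 (adjusted p = 0.141) and 1.26 (adjusted p = 0.212). Over all settings, 561 single values were labelled as unchanged. For log2 fold changes this means the same direction and call. For marker ratios, which have no call, it means the same direction and a shift under the larger group SD. Of the rest, 15 gained a call, 2 lost it, 4 marker ratios moved further and 7 values turned direction.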
